A study of Homo sapiens with 14 samples.

Results

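The proteasome subunit genes were taken as the protein-coding genes whose symbol is PSM, followed by a letter from A to G and a number. The rule found 50 gene IDs under 48 symbols, since PSMA1 and PSMA2 each stand under 2 IDs, of 57820 genes in the tables, 20345 of them protein-coding. All libraries hold mRNA of HEK293T, an immortalized human embryonic kidney line. In the conversion experiment, 2 libraries each were made from RNA with 24 h of s4U and acrylonitrile (s4U-acrylonitrile-RNA), with acrylonitrile alone (Con-acrylonitrile-RNA), with 24 h of s4U alone (s4U-RNA), and with neither (Con-RNA). s4U is a thiolated uridine that cells build into new RNA, and acrylonitrile, which acts on the isolated RNA, turns it into a base that is read as a T-to-C mismatch. The protocol gives 50 µM s4U for this experiment, whereas the sample labels of s4U-acrylonitrile-RNA give 500 µM. In the PDP experiment, cells received 0, 4 or 8 µM PDP, a pyridostatin analog that binds G-quadruplexes, and 20 min later 500 µM s4U for 1 h, again with 2 libraries per dose. By the study's methods, the RNA of all PDP libraries was also treated with acrylonitrile. Whether the replicates came from separate cultures is not stated in the sources, and a p-value here therefore covers the spread between libraries, which may be technical.

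The proteasome is the protease that degrades proteins tagged with ubiquitin. Its barrel-shaped core particle is built of rings of alpha subunits, which form the gate, and rings of beta subunits, some of which carry the proteolytic sites inside. A regulatory particle caps the barrel: a base with a ring of ATPases unfolds the substrate, and a lid removes the ubiquitin. Assembly chaperones build these parts and leave, and other caps activate or inhibit the core. When proteasome activity falls short, cells raise the transcripts of most subunits together, mainly through the transcription factor NFE2L1.

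Promoters are shown because the subunit genes moved together with s4U while a few did not. A promoter (250 bases before to 50 after the start, from RefSeq, build GRCh38.p14) matched 42 of the 48 symbols, and none was matched for PSMA7, PSMB1, PSMB6, PSMB7, PSMD4 and PSMG3. PSMC4 (chr19:39970915-39971214, plus strand) had the largest rise with s4U among the measured members, PSMA3 (chr14:58244593-58244892, plus strand) rose most in total RNA at 4 µM PDP, PSMD3 (chr17:39980557-39980856, plus strand) had the highest level per transcript length in the PDP experiment, and PSMG1 (chr21:39183402-39183701, minus strand) fell with s4U. Capitals mark 4 motifs on either strand: TGACNNNGC (the core of the antioxidant response element), CCAAT (the box bound by NF-Y), CGGAAG (an ETS factor motif) and GGGCGG (a GC box).
PSMC4: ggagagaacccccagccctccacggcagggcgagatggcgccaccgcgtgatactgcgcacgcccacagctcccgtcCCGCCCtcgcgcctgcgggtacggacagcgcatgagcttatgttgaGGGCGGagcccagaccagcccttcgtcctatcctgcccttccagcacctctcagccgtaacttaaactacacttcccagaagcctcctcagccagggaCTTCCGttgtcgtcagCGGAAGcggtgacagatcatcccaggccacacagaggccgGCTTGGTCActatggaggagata
PSMA3: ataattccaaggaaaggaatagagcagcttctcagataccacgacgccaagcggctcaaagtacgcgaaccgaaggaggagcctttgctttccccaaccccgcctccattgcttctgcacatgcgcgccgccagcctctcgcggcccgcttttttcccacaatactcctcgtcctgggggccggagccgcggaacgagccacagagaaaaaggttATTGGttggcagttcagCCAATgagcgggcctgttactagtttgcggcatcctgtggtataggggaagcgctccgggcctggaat
PSMD3: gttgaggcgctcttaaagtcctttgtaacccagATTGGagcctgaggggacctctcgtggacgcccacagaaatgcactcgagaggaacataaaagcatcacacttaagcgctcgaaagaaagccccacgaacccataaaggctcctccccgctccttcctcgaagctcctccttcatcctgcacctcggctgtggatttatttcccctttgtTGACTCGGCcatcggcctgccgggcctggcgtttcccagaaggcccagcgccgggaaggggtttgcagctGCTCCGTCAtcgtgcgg
PSMG1: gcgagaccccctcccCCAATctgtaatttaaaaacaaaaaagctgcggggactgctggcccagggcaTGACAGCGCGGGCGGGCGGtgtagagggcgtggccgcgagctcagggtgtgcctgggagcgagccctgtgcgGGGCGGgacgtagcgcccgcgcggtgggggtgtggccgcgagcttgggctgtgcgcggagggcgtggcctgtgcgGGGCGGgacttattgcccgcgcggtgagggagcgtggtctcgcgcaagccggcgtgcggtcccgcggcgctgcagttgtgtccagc
The PSMC4 window held 1 TGACNNNGC, 2 CGGAAG and 2 GGGCGG matches, and that of PSMA3 held 2 CCAAT matches. In the PSMD3 window there were 2 TGACNNNGC matches and 1 CCAAT, and in that of PSMG1 1 TGACNNNGC, 1 CCAAT and 4 GGGCGG. TGACNNNGC was present in 13 of the 42 member promoters (31.0%, against 13.3% of all 35116 promoters of this length). CGGAAG was present in 23 (54.8%, against 19.5%), GGGCGG in 28 (66.7%, against 45.0%) and CCAAT in 18 (42.9%, against 34.6%). A G-quadruplex motif, in which loops of up to 7 bases join runs of 3 or more G, was found in 11 (26.2%, against 25%). The 42 symbols had 51 promoters, of which 1 per symbol was kept by position, whereas the share of all promoters counts every promoter. The promoter kept need not be the main start of its gene. A match is a description of the letters and was not tested as a site.

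Per base of transcript, subunit levels were uneven although the complex holds most of them in equal number. In the PDP experiment without PDP, PSMD3, a lid scaffold subunit, had 194.2 and 192.2 FPKM (fragments per kilobase of transcript, scaled to library size). PSMA7, an alpha subunit, followed with 143.8 and 141.2 FPKM, and the base scaffold PSMD2 with 104.6 and 104.4 FPKM. The lowest of the members that passed the filter on low counts were the ATPase PSMC6, with 1.99 and 2.63 FPKM, and the chaperone PSMG2, with 3.44 and 2.65 FPKM. The 3 highest members did not overlap each other or these 2, whereas the means of PSMC6 and PSMG2 lay closer together than the 2 replicates of PSMG2. Medians were 7.61 FPKM over the 9 alpha IDs, 46.2 over 6 beta subunits, 24.5 over the 6 ATPases, 40.5 over 3 other base subunits, 21.8 over 8 lid subunits, 40.2 over 6 chaperones and 10.4 over the 4 activators and the inhibitor. PSMB3 had no transcript length in the annotation used. The 2 experiments did not order the genes alike. In Con-RNA, PSMC6 stood at 15.8 and 13.3 FPKM and PSMD3, at 64.7 and 67.3, was not the highest member. The 2 sets of levels differ in preparation and scale. Con-RNA had neither s4U nor acrylonitrile and is TMM-scaled, whereas the PDP libraries had both and are scaled to all their fragments. The part of these differences in the order of the genes was not tested.

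Of the genes of other proteasome forms, PSMB8, PSMA8 and PSMB11 had almost no fragments, whereas PSMB10, an inducible beta subunit, had 34.3 and 33.7 FPKM without PDP. PSMB8, also an inducible beta subunit of the immunoproteasome, had no more than 1 fragment in any library of the conversion experiment. PSMA8, known as an alpha subunit of the testis, had at most 3. PSMB11, known from the thymus, had none in the conversion experiment and 1 fragment in 1 library with 8 µM PDP. These 3 IDs were not tested, which left 47 of 50 in the conversion experiment. PSMB9, another inducible subunit, and PSMD5, a base chaperone, were also left out of the tests of the PDP experiment, which kept 45 IDs.

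The conversion libraries held 6074118 to 17228999 fragments each and the PDP libraries 9770956 to 22363992, with 2 libraries at 0 µM PDP shallower than the 4 with PDP. In the conversion experiment, the share of fragments in annotated genes was 68.4% to 70.9% in the 4 libraries with acrylonitrile and 85.8% to 90.6% in the 4 without. In the PDP libraries, also treated with acrylonitrile, it was 82.6% to 89.7%. The part of acrylonitrile in these differences was not tested. Of 8 kidney-line marker genes, 7 could be summed, and none of these was at 0 in any library, while the summed level of leukocyte markers was 0.269 to 2.62 CPM or FPM (fragment counts scaled to library size) over all libraries. Liver genes were detected in the conversion experiment. Their summed level over 12 genes was 38.0 and 78.8 CPM in s4U-acrylonitrile-RNA, 93.6 and 239 in Con-acrylonitrile-RNA, 18.5 and 11.2 in s4U-RNA and 19 and 20.2 in Con-RNA. In the PDP libraries it was 0.599 to 1.12 FPM, with 6 to 10 of the 12 at 0. The part of these liver transcripts in the results was not tested.

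After 24 h with s4U, transcripts of most proteasome subunits were more abundant, both with and without acrylonitrile. Without acrylonitrile, 39 of the 47 tested members rose and 3 fell (edgeR's quasi-likelihood test, Benjamini-Hochberg adjusted p under 0.05), while 35.8% of all 18914 genes rose and 34.7% fell. The median log2 fold change was 1.00 over the members and 0.02 over all genes. With acrylonitrile, 38 rose and 3 fell, with a background of 33.2% higher and 31.1% lower, and the medians were 1.17 and 0.05. The summed level of all members was 6666 and 5167 CPM in s4U-RNA, against 3010 and 2995 CPM in Con-RNA. It was 5022 and 4585 CPM in s4U-acrylonitrile-RNA, against 2250 and 2215 CPM in Con-acrylonitrile-RNA. The groups did not overlap in either pair, and the 2 s4U-RNA libraries differed more from each other than any other pair. The comparisons use separate libraries, but s4U-acrylonitrile-RNA carries the conflicting s4U dose. A change per cell and a change in the share of the RNA cannot be told apart in these data.

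The catalytic subunits rose together with s4U. PSMB5 (chromosome 14, 23485752 to 23504439, minus strand, hg19), which carries the chymotrypsin-like site, had 287.2 and 230.8 CPM in s4U-RNA, against 92.5 and 91.1 CPM in Con-RNA. It had 184.6 and 151.9 CPM in s4U-acrylonitrile-RNA, against 60.7 and 59.2 CPM in Con-acrylonitrile-RNA. Every s4U library lay above both of its controls, and the log2 fold changes were 1.54 (SE 0.13, adjusted p = 4.5e-06) and 1.41 (SE 0.14, adjusted p = 1.4e-05). PSMB6, with the caspase-like site, had 187.4 and 103.3 CPM in s4U-RNA, against 49.3 and 47.9 CPM in Con-RNA, a log2 fold change of 1.62 (SE 0.23, adjusted p = 0.00013). PSMB7, with the trypsin-like site, had 196.9 and 163.9 CPM in s4U-RNA, against 84.0 and 83.1 CPM in Con-RNA, a log2 fold change of 1.15 (SE 0.12, adjusted p = 2.2e-05). With acrylonitrile their changes were 1.63 and 1.46.

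The inducible subunits did not move as one. PSMB10 (chromosome 16, 67968405 to 67970990, minus strand, hg19), which replaces PSMB7 in the immunoproteasome, had 43.9 and 22.6 CPM in s4U-RNA, against 12.6 and 10.5 CPM in Con-RNA (log2 fold change 1.56, SE 0.26, adjusted p = 0.00038). It also rose with acrylonitrile, to 67.2 and 63.3 CPM in s4U-acrylonitrile-RNA, against 25.3 and 27.4 CPM in Con-acrylonitrile-RNA. PSMB9, which replaces PSMB6, had 0 and 1 fragments in s4U-RNA, against 13 and 16 in Con-RNA, and was called lower (adjusted p = 0.001). With acrylonitrile it had 0 and 0 fragments in s4U-acrylonitrile-RNA, against 2 and 3 in Con-acrylonitrile-RNA, and was called lower there too (adjusted p = 0.024), at a depth that allows no fold. The call with acrylonitrile was lost with DESeq2's test and in 3 of the 4 omissions of 1 library (adjusted p up to 0.104). PSMB9 shares its strand and part of its locus with TAPSAR1, so that fragments of either could be counted for the other.

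**Figure D1:**
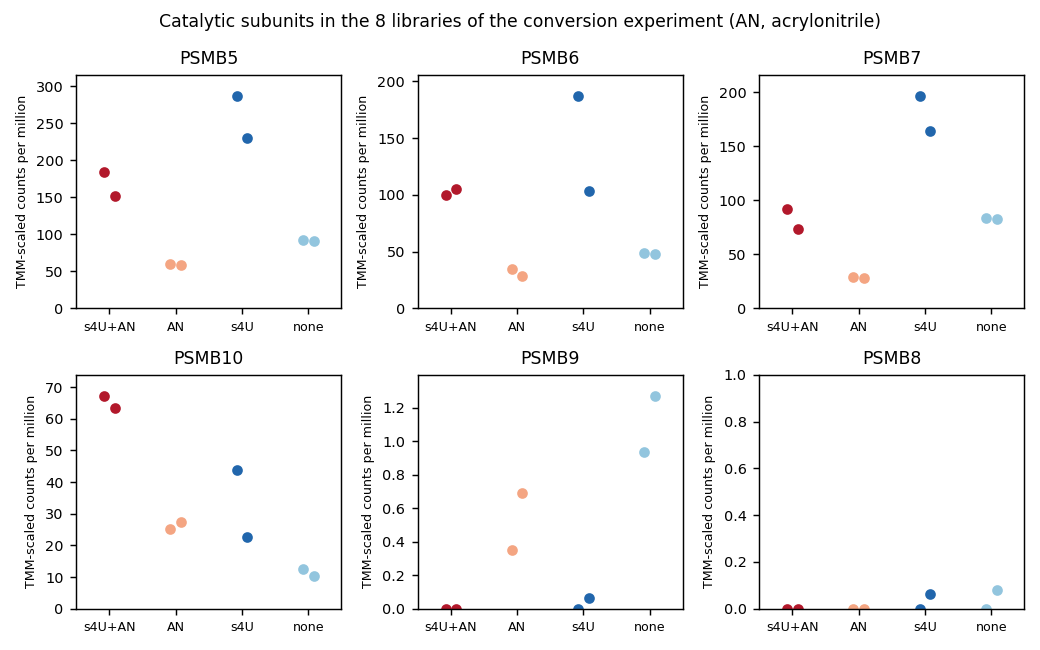
Level (TMM-scaled CPM, y axis) of the 3 catalytic and the 3 inducible beta subunits in the 4 groups of the conversion experiment, 1 point per library. PSMB5, PSMB6, PSMB7 and PSMB10 lie higher in both groups with s4U than in the matching group without, whereas PSMB9 lies at 0 or 0.1 CPM with s4U and PSMB8 near 0 throughout.

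All parts of the core and of the regulatory particle took part in the rise. Without acrylonitrile, the 9 alpha IDs (median log2 fold change 0.98), the 7 constitutive beta subunits (1.15), the 3 other base subunits (0.77) and the 8 lid subunits (1.21) all rose, and so did 5 of the 6 ATPases (1.26). The largest change was that of the ATPase PSMC4 (chromosome 19, 40476912 to 40487348, plus strand, hg19), with 255.3 and 200.2 CPM in s4U-RNA, against 57.4 and 61.6 CPM in Con-RNA. Its log2 fold change was 1.98 (SE 0.13, adjusted p = 1.2e-06), and with acrylonitrile 2.24 (SE 0.14, adjusted p = 1.2e-06). PSMB3, a beta subunit without a catalytic site, had 265.4 and 177.8 CPM in s4U-RNA, against 69.5 and 67.7 CPM in Con-RNA. The alpha subunit PSMA2 had 180.1 and 94.4 CPM in s4U-RNA, against 40.6 and 41.2 CPM in Con-RNA, under 1 ID, and 198.5 and 113.9, against 47.3 and 48.1, under the other. PSMA2's IDs overlap each other on the same strand, and their values are therefore not independent. The ATPase PSMC6 did not pass without acrylonitrile (log2 fold change 0.44, adjusted p = 0.077), nor did the alpha subunit PSMA5 with it (0.25, adjusted p = 0.46).

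Chaperones and alternative caps gave mixed counts. Of the 7 chaperones, 4 rose and 2 fell without acrylonitrile (median 0.38), and 2 rose and 2 fell with it (median 0.02). PSMG1 (chromosome 21, 40546695 to 40555777, minus strand, hg19), a chaperone of alpha ring assembly, had 27.3 and 21.1 CPM in s4U-RNA, against 37.1 and 39.9 CPM in Con-RNA. It had 18.2 and 23.6 CPM in s4U-acrylonitrile-RNA, against 61.9 and 70.7 CPM in Con-acrylonitrile-RNA. The groups did not overlap, with log2 fold changes of -0.63 (SE 0.17, adjusted p = 0.0079) and -1.74 (SE 0.19, adjusted p = 2.8e-05). PSMG3, which acts in the same step, had 26.8 and 14.8 CPM in s4U-RNA, against 41.0 and 41.5 CPM in Con-RNA (log2 fold change -0.96, SE 0.21, adjusted p = 0.0023). Its change with acrylonitrile was -1.40. Of the 4 activators and the inhibitor, 2 rose without acrylonitrile and 3 with it. The nuclear activator PSME3 (0.09 and 0.17) and the large activator PSME4 (-0.10 and 0.02) passed in neither. Without the second Con-RNA library, 1 member rather than 3 was called lower without acrylonitrile. Without the 16 members that share strand and position with another gene, 24 of the remaining 31 rose and 2 fell.

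**Figure D2:**
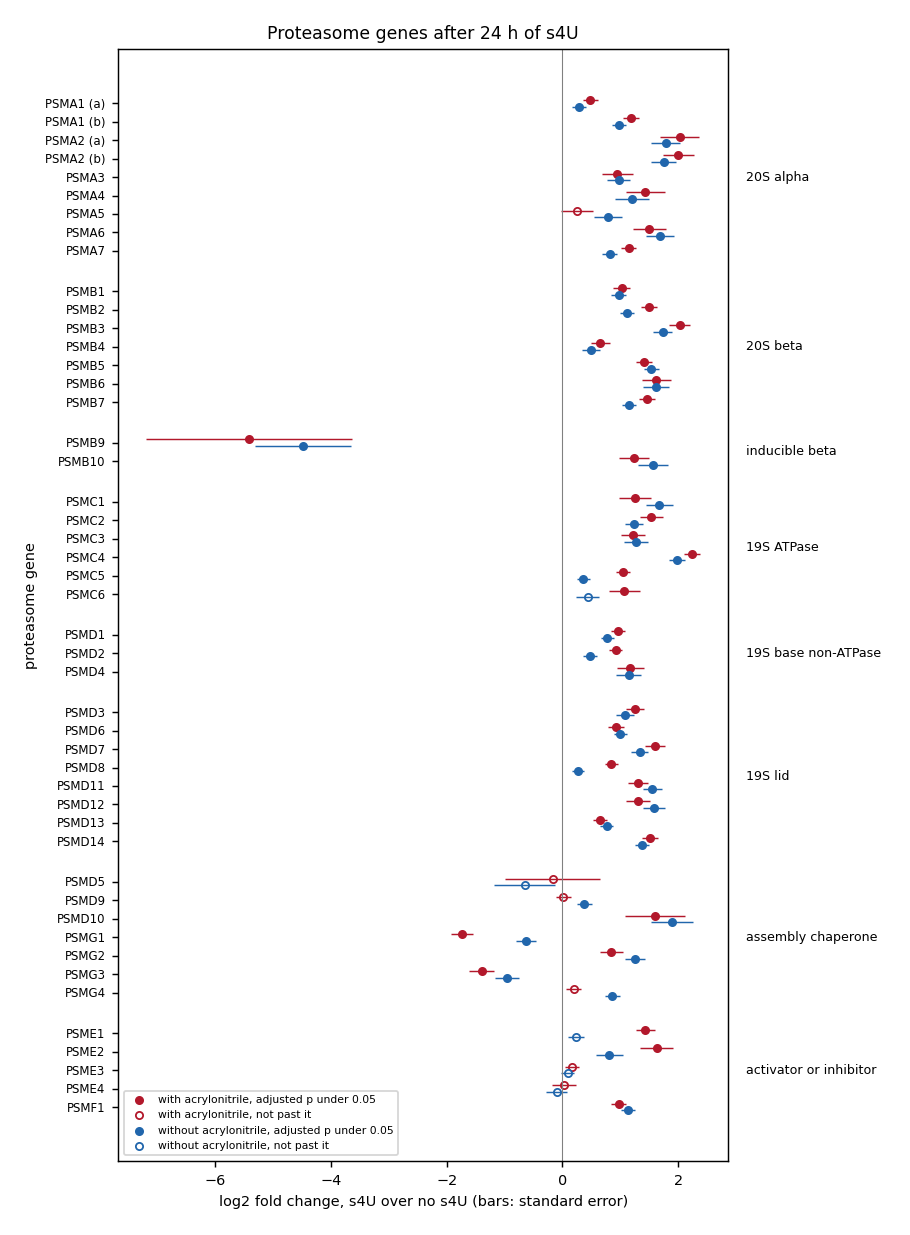
Log2 fold change with 24 h of s4U (x axis, error bars are SE) for the 47 tested members, grouped by role, with acrylonitrile (red) and without (blue), filled where the adjusted p is under 0.05. Nearly all core, ATPase and lid subunits lie right of 0, PSMG1 and PSMG3 lie left of it in both colours, and the fitted value of PSMB9 depends on the prior count and is no bound.

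Other genes of the pathway moved less uniformly. Of 27 genes for further subunits, regulators, ubiquitin and shuttle factors, 14 rose and 4 fell without acrylonitrile (median 0.43). With acrylonitrile, 13 rose and 4 fell. Of all genes, 35.8% rose and 34.7% fell without acrylonitrile, and 33.2% rose and 31.1% fell with it. SHFM1, a small lid subunit, had a log2 fold change of 2.98 (SE 0.20, adjusted p = 1.2e-06), larger than that of any member by the rule. POMP, which matures the core particle, rose by 1.94 (SE 0.39, adjusted p = 0.0013), and the ubiquitin receptor ADRM1 by 1.35 (SE 0.14, adjusted p = 1.9e-05). NFE2L1, the transcription factor named above, rose by 0.73 and by 1.09 with acrylonitrile. Its relative NFE2L2 had a change of -0.46 (adjusted p = 0.0064) and, with acrylonitrile, of 0.20 (adjusted p = 0.2). Among the 39 symbols with both a promoter and a test without acrylonitrile, TGACNNNGC was in 8 of 32 that rose, in both that fell and in 3 of the 5 that did neither. CGGAAG was in 19 of the 32, in neither that fell and in 2 of the 5.

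Acrylonitrile lowered more proteasome transcripts than it raised. In RNA without s4U, 7 members were higher and 31 lower in Con-acrylonitrile-RNA than in Con-RNA, with 29.1% and 30.7% of all genes, and the median log2 fold change was -0.74 over the members and -0.07 over all genes. In s4U-labeled RNA, 8 were higher and 27 lower, with 31% and 34.1% of all genes, and the medians were -0.61 and -0.08. These 2 comparisons share no library with each other, but each shares its untreated or treated libraries with the s4U comparisons above. Of the 9 alpha IDs, 8 fell and 1, PSMA7, rose in both (medians -1.52 and -1.70). Of the 7 constitutive beta subunits, 6 fell without s4U and 5 with it. The ATPases gave 4 and 3 that fell and none that rose.

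Single members show how far the acrylonitrile effect reached in each direction. PSMD10, a base chaperone also known as gankyrin, had 4.9 and 5.5 CPM in Con-acrylonitrile-RNA, against 31.0 and 29.7 CPM in Con-RNA, and 17.2 and 15.7 CPM in s4U-acrylonitrile-RNA, against 162.9 and 57.5 CPM in s4U-RNA. Its log2 fold changes were -2.41 (SE 0.48, adjusted p = 0.0017) and -2.71 (SE 0.39, adjusted p = 0.00018). PSMA2 under its first ID had 7.0 and 6.4 CPM in Con-acrylonitrile-RNA, against 40.6 and 41.2 CPM in Con-RNA (-2.46, SE 0.33, adjusted p = 0.00013). The ATPase PSMC2 (-2.03 and -1.74) and the lid deubiquitinase PSMD14 (-1.97 and -1.83) fell too. PSMD3 (chromosome 17, 38137050 to 38154213, plus strand, hg19) rose, with 305.7 and 338.1 CPM in Con-acrylonitrile-RNA, against 139.0 and 144.6 CPM in Con-RNA, and 785.1 and 828.8 CPM in s4U-acrylonitrile-RNA, against 255.9 and 325.0 CPM in s4U-RNA. Its changes were 1.33 (SE 0.16, adjusted p = 6.4e-05) and 1.5 (SE 0.16, adjusted p = 2.3e-05). PSMB10 also rose (1.33 and 1.01), as did PSMG3 (1.29 and 0.85). Among the catalytic subunits, PSMB7 fell by 1.40 and 1.09 on the log2 scale. PSMB5 passed narrowly at -0.47 and -0.60. Without s4U its call was lost whichever library was left out (adjusted p of 0.058 to 0.072), and with s4U it was lost without the second s4U-acrylonitrile-RNA library (0.054). PSMB6 stood at -0.47 and -0.46 and did not pass, and its difference from PSMB5 was not tested.

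The size of the acrylonitrile effect went with the GC content of the transcript. Across the 46 members with a GC value (genes, not independent replicates), Pearson's r was 0.74 both without and with s4U, and across 18237 genes it was 0.66 and 0.62. The s4U effect had little such relation (r of -0.15 and -0.13 over the members). The median transcript GC was 47.9% over the members and 49.4% over the tested protein-coding genes. With a GC term for each library, 4 members were higher and 24 lower without s4U and 5 and 24 with it. The calls for PSMB10 and PSMG3 were then lost without s4U, and turned to log2 fold changes of -0.20 and -0.10 with it. The counts of the s4U effect were 36 higher and 3 lower in both comparisons with this term. No share of all genes is given with the GC term. Of the liver genes, 9 of 9 tested were higher after acrylonitrile without s4U and 6 of 9 with it, and their part in the member values was not tested.

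**Figure D3:**
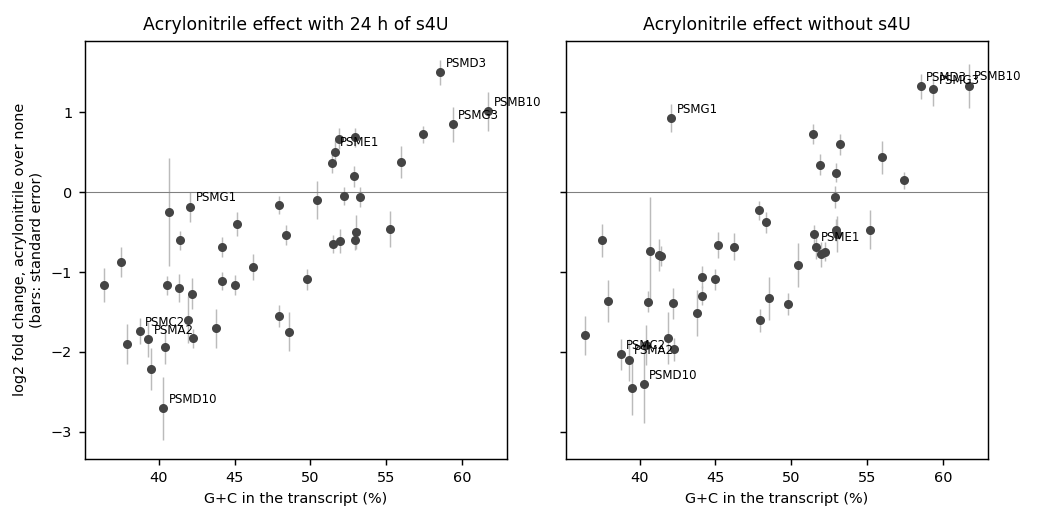
Log2 fold change with acrylonitrile (y axis) against transcript GC content (%, x axis) for the members, in s4U-labeled RNA (left) and in unlabeled RNA (right), with PSMB9 and PSMB3 left out. AT-rich members such as PSMA2 and PSMD10 lie lowest and the GC-rich PSMD3 highest. The r of 0.74 given in the text for each comparison is over 46 members and includes PSMB9.

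One member, the activator subunit PSME1, responded to acrylonitrile in opposite directions with and without s4U. PSME1 (chromosome 14, 24605367 to 24608176, plus strand, hg19) had 33.8 and 30.0 CPM in s4U-acrylonitrile-RNA, against 23.5 and 22.2 CPM in s4U-RNA, and 12.2 and 10.1 CPM in Con-acrylonitrile-RNA, against 20.9 and 18.9 CPM in Con-RNA. The log2 fold changes were 0.51 (adjusted p = 0.0086) and -0.68 (adjusted p = 0.004), and the difference between them was 1.19 (SE 0.21, adjusted p = 0.0282 by edgeR's quasi-likelihood test of the interaction). PSME1 was the only member past the threshold in this test, which called 1 member higher and 0 lower, with 1.28% and 0.354% of all genes. Without adjustment, 4 members had a positive and 2 a negative difference at p under 0.05. The call was lost without any 1 of the 6 Con-RNA, Con-acrylonitrile-RNA or s4U-acrylonitrile-RNA libraries (adjusted p of 0.0503 to 0.20). The conflicting s4U doses of the labels lie between the same groups.

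After 24 h, most fragments of most subunit genes carried a T-to-C mismatch in s4U-acrylonitrile-RNA. The tables do not name the mismatch type, and it is read here as T-to-C from the study's methods. Over the 45 IDs with at least 20 fragments in every library, the median share was 85.3% and 86.2% in s4U-acrylonitrile-RNA, 6.91% and 7.41% in Con-acrylonitrile-RNA, 12.3% and 10.1% in s4U-RNA and 7.34% and 6.74% in Con-RNA. All 45 lay higher in both s4U-acrylonitrile-RNA libraries than in any other library (p = 0.0357 in an exact two-sided permutation test, which sets 2 libraries against 6 and can give no smaller p). Over all 11858 genes with this depth, the medians in s4U-acrylonitrile-RNA were 92.4% and 90.2%. Replicates of a member differed by 1.98 percentage points on average and by 6.11 at most.

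The subunits nonetheless spread widely in this share. PSME1 had the lowest, with 83 of 251 fragments (33.1%, 95% Wilson interval 27.5 to 39.1) and 60 of 186 (32.3%, 26.0 to 39.3) in s4U-acrylonitrile-RNA, against 5 of 70 and 4 of 44 in Con-acrylonitrile-RNA. PSMD2 followed with 1400 of 3455 fragments (40.5%, 38.9 to 42.2) and 991 of 2623 (37.8%, 35.9 to 39.7), against 76 of 1242 and 51 of 996. The chaperone PSMG4 had the highest, with 622 of 650 (95.7%, 93.8 to 97.0) and 597 of 624 (95.7%, 93.8 to 97.0), against 35 of 468 and 24 of 326. The intervals of these 3 genes do not overlap, and they cover counting error only. Of the catalytic subunits, PSMB5 was marked in 84.9% and 88.3% of its fragments, PSMB7 in 77.2% and 77.3%, PSMB6 in 73.9% and 73.8% and PSMB10 in 65.3% and 64.0%. Medians by role were 91.3% for the lid, 90.2% for the chaperones, 89.7% for the alpha IDs, 88.7% for the ATPases, 77.2% for the beta subunits, 74.9% for the other base subunits and 69.7% for the activators and the inhibitor. PSMB7 carried mismatches in 15.2% and 15.3% of its fragments in Con-acrylonitrile-RNA as well, about the level in Con-RNA (15.5% and 16.2%), and PSMA2 in 13.5% and 16.4% under its 2 IDs.

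Half-lives from 1 h of labeling were longer for most subunits than for the median gene. They follow the study's formula, which takes the labeled share of a gene's fragments after 60 min as the part made in that time and assumes steady state. Over 45 members the median was 5.12 h (quartiles 3.33 and 7.54 h), against 3.01 h over 14390 genes of any type (1.90 and 4.58 h). Of the 45, 36 lay above the median of all genes. The median that the study reports for mRNAs of these cells was longer than both, and its set of transcripts was not matched here. PSMD2 had the longest, with 207 of 2976 fragments labeled (6.96%, 95% Wilson interval 6.10 to 7.93) and 203 of 3212 (6.32%, 5.53 to 7.21), a mean of 10.1 h. PSMB6 followed at 8.91 h, with labeled shares of 7.29% and 7.69%, and the beta subunit PSMB2 at 8.82 h. PSMG2 had the shortest, 1.07 h, from only 21 of 36 and 12 of 30 fragments, and PSMG4 had 1.71 h from 159 of 495 and 191 of 549. Medians by role were 7.67 h for the beta subunits, 5.98 h for the other base subunits, 5.70 h for the lid, 5.12 h for the activators and the inhibitor, 4.20 h for the chaperones, 4.12 h for the ATPases and 3.25 h for the alpha IDs.

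The longest values rest on shares close to the background. PSMB6 was labeled in 7.29% and 7.69% of its fragments here, and its own share in Con-acrylonitrile-RNA averaged 8.85%, so that no half-life remains once this is taken off. PSMD2 had 5.62% and PSMB2 5.37% in Con-acrylonitrile-RNA. With each gene's own Con-acrylonitrile-RNA share taken off, 40 of the 45 members kept a value and their median was 10.5 h. No median over all genes is given with this background taken off. PSMD2 and PSMG4, at opposite ends after 1 h, were near the same ends after 24 h. Across the 45 members (genes, not independent replicates), Pearson's r between the shares after 24 h and after 1 h was 0.46 (Spearman's rho 0.57).

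**Figure D4:**
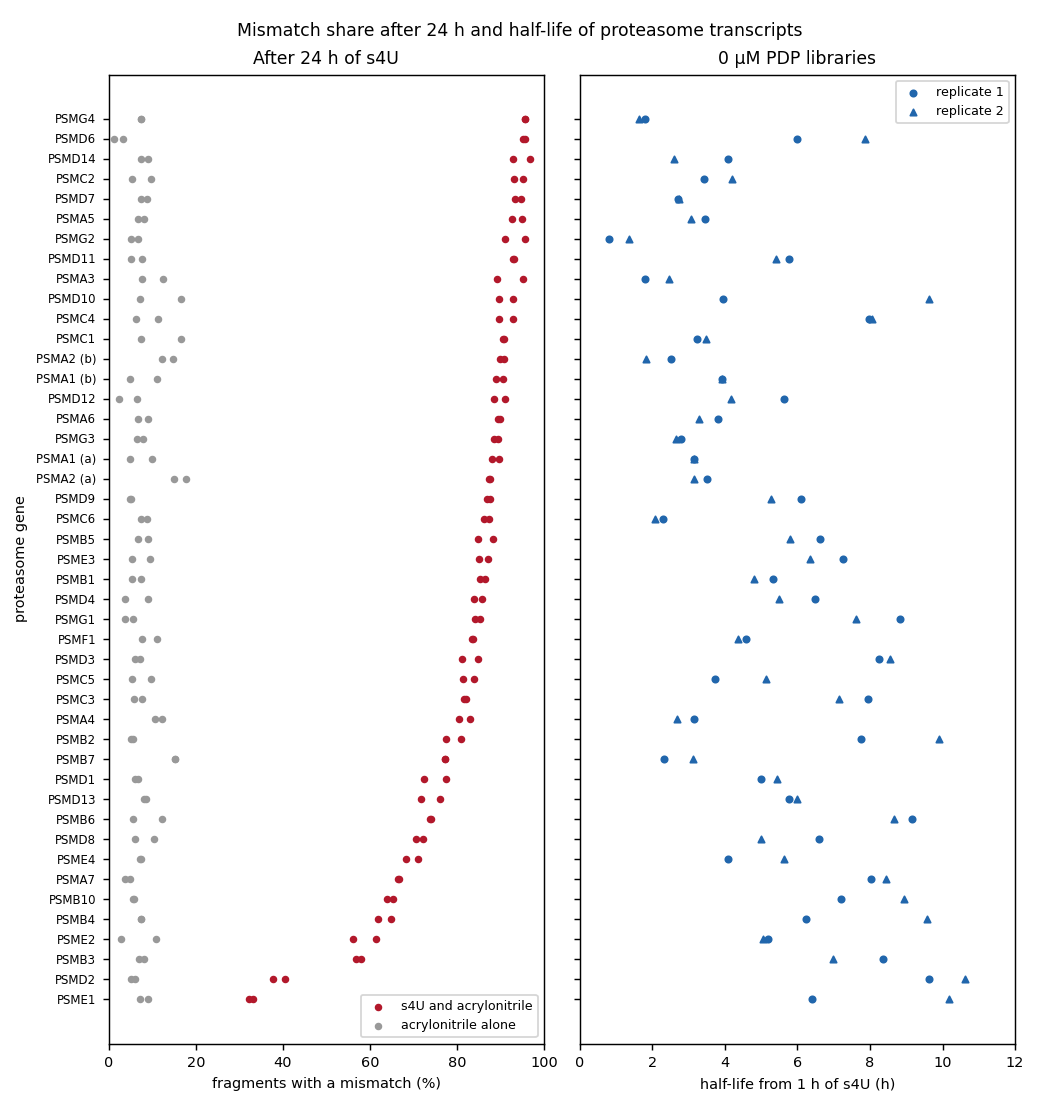
Left, share of fragments with at least 1 mismatch (%, x axis) for 45 members in s4U-acrylonitrile-RNA (red) and Con-acrylonitrile-RNA (grey), 1 point per library. Right, half-life (h, x axis) in the 2 libraries without PDP, in the same order of genes; PSME1 and PSMD2 have the lowest 24 h shares and PSMD2 the longest half-life.

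PDP changed the labeled RNA of few subunits, and the balance of rises and falls depended on the scaling. With the authors' library sizes, at 4 µM, 1 of the 45 tested members was higher and 4 were lower than at 0 µM, with 9.24% and 19.9% of 14124 genes. At 8 µM, 3 were higher and 8 lower, with 10.3% and 27.5% of all genes. The median log2 fold change was 0.05 at 4 µM and 0.01 at 8 µM over the members, and -0.03 and -0.11 over all genes. With TMM scaling, 7 were higher and 4 lower at 8 µM, and 4 of each at 4 µM. The shares of all genes given above do not apply to these TMM counts. Between 8 and 4 µM, 1 member passed, the ATPase PSMC3 (0 higher and 1 lower, with 0.701% and 4.92% of all genes). PSMC3 had 13 and 15.1 labeled FPM (fragments scaled to all fragments of the library, labeled or not) at 0 µM, 13.9 and 14.8 at 4 µM and 13 and 9.03 at 8 µM, where 1 of the 2 libraries was low. Its log2 change between the doses was -0.37 (adjusted p = 0.027). It ranged from -0.67 to -0.14 with 1 library left out, and the call held in 1 of these 4 omissions (adjusted p up to 0.66). It was also lost with TMM, DESeq2, limma on log2(FPM + 0.1), a GC term and library sizes of fragments in genes.

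PSMG3, PSMD2, PSMD3 and PSMG1 were lower at both doses. PSMG3 had 23.2 and 24.1 labeled FPM at 0 µM, 17.6 and 16.4 at 4 µM and 15.0 and 14.2 at 8 µM. PSMD2 had 21.2 and 19.2 labeled FPM at 0 µM, 14.6 and 15.5 at 4 µM and 13 and 12.7 at 8 µM. PSMD3 had 33.6 and 32.2 labeled FPM at 0 µM, 26.1 and 26.2 at 4 µM and 23.6 and 22.0 at 8 µM. In each of these 3 genes the libraries of the 3 doses did not overlap. At 8 against 0 µM, their log2 fold changes were -0.70 (SE 0.11, adjusted p = 4.4e-09), -0.65 (SE 0.11, adjusted p = 3.3e-07) and -0.52 (SE 0.09, adjusted p = 3.3e-07). Labeled fragments were 22.0% and 22.9% of the total of PSMG3 at 0 µM, against 7.15% with mismatches in Con-acrylonitrile-RNA. PSMD2 had 6.96% and 6.32%, against 5.62%, PSMD3 8.05% and 7.80%, against 6.59%, and PSMG1 7.54% and 8.69%, against 4.60%. The part of this background in the changes of these genes was not tested. PSMG1 fell by 0.64 (SE 0.18, adjusted p = 0.0022), with 6.75 and 7.67 labeled FPM at 0 µM, 4.37 and 5.24 at 4 µM and 4.25 and 5.06 at 8 µM, and its call at 8 µM was lost without the second library at 0 µM or the first at 8 µM (adjusted p up to 0.076). At 4 µM, the calls of PSMD2 and PSMD3 were lost without the first library at 0 µM. That of PSMG1 at 4 µM did not hold in every omission of a library, with log2 fold changes from -0.72 to -0.46. At 8 µM alone, PSMB10 (-0.72), PSMD9 (-0.46), PSMD8 (-0.36) and PSMC3 (-0.34) also passed, none of them in every omission of a library. The call of PSMB10 was lost whichever library was left out (adjusted p of 0.051 to 0.27). PSMD9 (adjusted p up to 0.18) and PSMD8 (-0.56 to -0.11, adjusted p up to 0.70) were lost without the second library at 0 µM or the first at 8 µM. PSMC3 (-0.64 to -0.12, adjusted p up to 0.57) was lost without the second library at 0 or at 8 µM.

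Those that rose were the alpha subunit PSMA6, PSMB7 and the inhibitor PSMF1. PSMA6 had only 13 and 19 labeled fragments at 0 µM, and it overlaps KIAA0391 on the same strand. PSMA6 had 1.33 and 1.80 labeled FPM at 0 µM, 2.39 and 2.73 at 4 µM and 3.31 and 3.05 at 8 µM (8 against 0 µM: log2 fold change 1.02, SE 0.28, adjusted p = 0.0018), and its call was lost without the first library at 0 µM (adjusted p = 0.068). PSMB7 had 9.52 and 7.38 labeled FPM at 0 µM, 12.9 and 12.4 at 4 µM and 11 and 11.2 at 8 µM (0.40, SE 0.15, adjusted p = 0.021). Its change ranged from 0.22 to 0.58 with 1 library left out, and the call was lost in 3 of the 4 omissions (adjusted p up to 0.42). The labeled fragments were 25.8% and 19.9% of its total at 0 µM, while 15.2% and 15.3% of its fragments carried mismatches in Con-acrylonitrile-RNA, and the part of this background in its change was not tested. PSMF1 had 11.9 and 12.5 labeled FPM at 0 µM, 14.7 and 15.3 at 4 µM and 14.6 and 15.6 at 8 µM (0.30, SE 0.12, adjusted p = 0.043), and its call was lost whichever library was left out (adjusted p up to 0.22). PSMB5 had 7.37 and 8.33 labeled FPM at 0 µM, 7.93 and 7.03 at 4 µM and 7.87 and 7.73 at 8 µM, and its doses overlapped. Leaving out 1 library moved the counts: at 8 µM, 4 members were lower without the second library at 0 µM or without the first at 8 µM, and 1 was higher without either of these or without the first at 0 µM. At 4 µM, 2 were lower without the first library at 0 µM, and 0 to 3 were higher over the omissions. With a GC term, 2 were higher and 5 lower at 8 µM, without a share of all genes under that setting.

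In total RNA most subunits were higher with PDP, but so were most genes. At 4 µM, 36 of 45 members were higher and 3 lower, with 51.4% and 6.99% of 15473 genes, and at 8 µM 36 were higher and 5 lower, with 51.8% and 8.71%. The median log2 fold change was 0.50 and 0.45 over the members and 0.32 and 0.33 over all genes. In these values each library is scaled to all its fragments, of which 82.6% and 83% lay in genes at 0 µM, 89.7% and 88.8% at 4 µM and 88.3% and 86.5% at 8 µM. With TMM scaling, which brings the median of all genes to 0.01 and 0.02, that of the members was 0.20 and 0.15, with 23 higher and 9 lower at 4 µM and 22 and 9 at 8 µM. DESeq2's size factors gave 19 and 8, and 16 and 9. With a GC term and TMM scaling, 8 were higher and 10 lower at 4 µM and 3 and 13 at 8 µM. The shares of all genes given above hold for the authors' library sizes only, and none is given for these other settings. Across 44 members, the change went against GC content (r of -0.70 at 4 µM and -0.74 at 8 µM, and -0.51 and -0.52 over 15042 genes).

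PSMA3 and PSMA6, alpha subunits, had the largest changes in total RNA at 4 and at 8 µM, while the alpha subunit PSMA7 (0.09 and 0.07) passed at neither dose. PSMA3 had 4.50 and 5.02 total FPM at 0 µM, 12.8 and 12.2 at 4 µM and 10.6 and 11.1 at 8 µM (log2 fold changes 1.39 and 1.18). PSMA6 had 7.98 and 9.47 total FPM at 0 µM, 20.6 and 18.3 at 4 µM and 20.9 and 18.8 at 8 µM (1.15 and 1.19). The ATPase PSMC6 had 4.30 and 5.68 total FPM at 0 µM, 11.4 and 10.7 at 4 µM and 10.1 and 11.3 at 8 µM (1.14 and 1.09). For all 3, every library with PDP lay above both at 0 µM, and for PSMA6 and PSMC6 the 2 doses overlapped. With the GC term and TMM scaling, PSMC6 no longer passed at 8 µM (0.34). At the lower end, PSMG1 had 89.6 and 88.2 total FPM at 0 µM, 69.4 and 75 at 4 µM and 69.3 and 73.0 at 8 µM (-0.30 and -0.32). PSMG3 (-0.19 and -0.28) and PSMD3 (-0.17 and -0.23) were also lower at both doses, with PSMD3 at 417.1 and 412.7 total FPM at 0 µM, 367.8 and 371.9 at 4 µM and 355.4 and 353.4 at 8 µM. PSMD2 (-0.13) and PSMD9 (-0.21) were lower at 8 µM, where both calls were lost without either library at 0 µM (adjusted p up to 0.19 and 0.098). Of the catalytic subunits, PSMB7 was higher by 0.64 at 4 µM and 0.58 at 8 µM. PSMB5 (0.30 and 0.22) and PSMB6 (0.42 and 0.29) passed as well, but PSMB5 at 8 µM was lost in 3 of the 4 omissions (adjusted p up to 0.055), and with TMM scaling PSMB5 was at -0.01 and -0.08 and PSMB6 at 0.12 and -0.01. Without the first library at 0 µM, 1 member was lower at 4 µM and 3 at 8 µM, and without the second 3 were lower at 8 µM. Unlabeled RNA, which is the total minus the labeled count, gave 37 higher and 2 lower at 4 µM (57.5% and 4.25% of all genes) and 36 and 4 at 8 µM (58.4% and 5.4%).

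**Figure D5:**
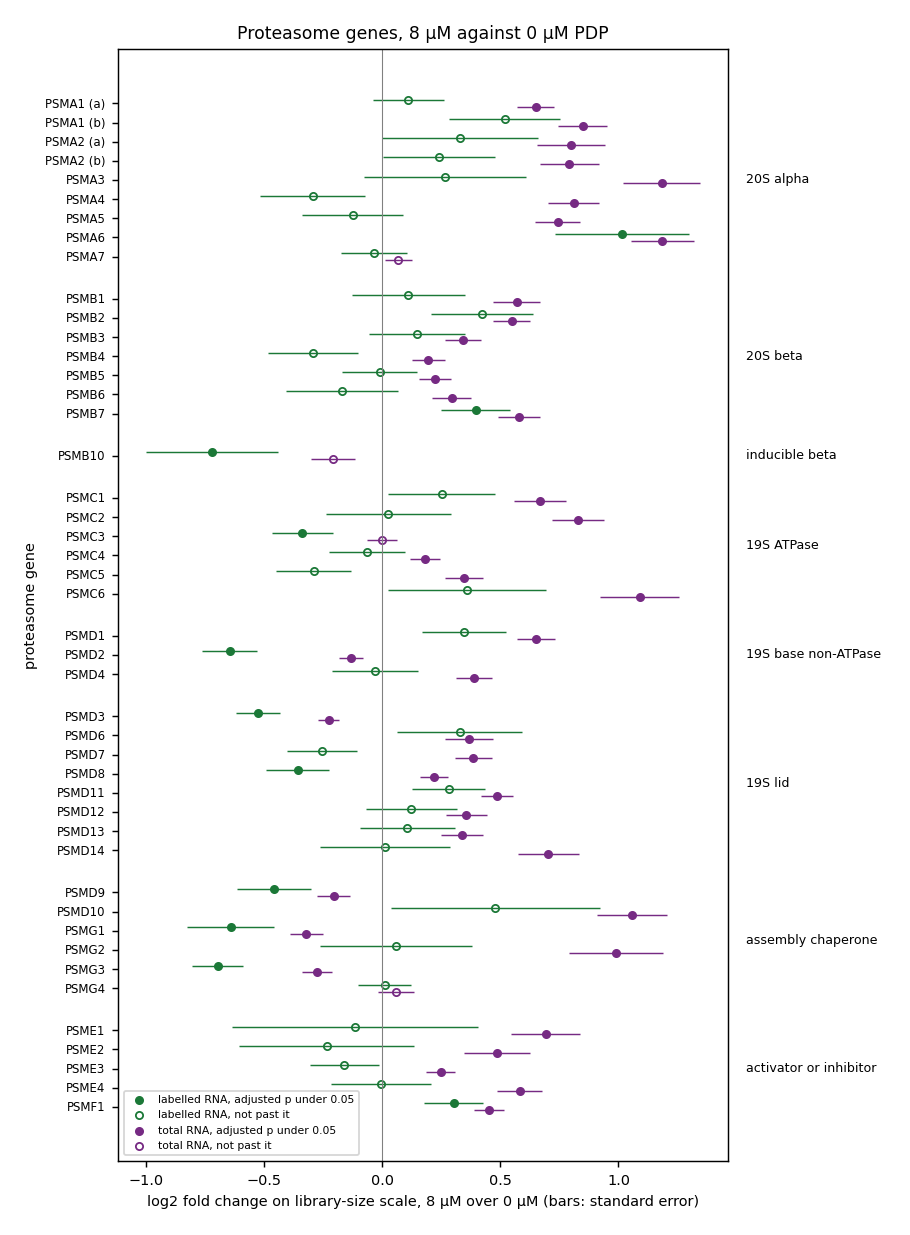
Log2 fold change at 8 against 0 µM PDP (x axis, error bars are SE) for the members in labeled RNA (green) and total RNA (purple), scaled to all fragments of the library. Most purple points lie right of 0, near or above the median of all genes of 0.33. The green points scatter around 0, with PSMA6 at 1.02. PSMB10, PSMG3, PSMD2, PSMG1 and PSMD3 lie below -0.5 in green.

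Without background taken off, the labeled share of the subunits fell with PDP about as it did over all genes. Labeled fragments made up a median of 12.5% and 12.6% of a member's total at 0 µM, 10.2% and 8.76% at 4 µM and 9.31% and 10.1% at 8 µM. Over all genes the medians were 21.5% and 21.6% at 0 µM, 16.9% and 16.6% at 4 µM and 15.5% and 16.3% at 8 µM. Labeled against unlabeled counts fell for 20 of 45 members at each dose and rose for 0, while 45.9% of all genes fell and 0.262% rose at 4 µM, and 54% fell and 0.637% rose at 8 µM. The median log2 change was -0.48 and -0.50 over the members and -0.48 and -0.58 over all genes. In Con-acrylonitrile-RNA of the conversion experiment, the median mismatch share was 6.91% and 7.41% over 45 members. Over 11858 genes it was 7.20% and 7.59%. This background makes up more of the members' labeled share than of that of all genes, and its part in the changes was not tested. The alpha subunit PSMA4 was labeled in 19.8% and 22.7% of its fragments at 0 µM, 11.5% and 10.9% at 4 µM and 10.5% and 9.1% at 8 µM, a log2 change of -1.10 at 4 µM and of -1.30 (SE 0.23, adjusted p = 7.3e-07) at 8 µM. PSMG2 had the largest change at 8 µM (-1.49, SE 0.43, adjusted p = 0.0019), from 12 to 48 labeled fragments per library. It ranged from -1.97 to -0.91 with 1 library left out, and the call was lost without the first library at 0 µM (adjusted p = 0.22). PSMG4 was labeled in 32.1% and 34.8% at 0 µM, 30.0% and 31.1% at 4 µM and 32.0% and 33.0% at 8 µM, and did not pass. Without either library at 0 µM, 12 members fell at 4 µM and 13 at 8 µM, and without the second library at 4 µM 13 fell at that dose.

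The other 27 pathway genes had median log2 fold changes of -0.18 at 4 µM and -0.22 at 8 µM in labeled RNA, and of 0.35 and 0.31 in total RNA. In labeled RNA, 1 of 27 was higher and 6 lower at 4 µM, and 1 and 10 at 8 µM, with 9.24% and 19.9% of all genes at 4 µM and 10.3% and 27.5% at 8 µM. In total RNA, 19 were higher at both doses, with 51.4% and 51.8% of all genes, and 2 and 3 were lower, with 6.99% and 8.71%. The ubiquitin receptor ADRM1 was lower in labeled RNA by 0.41 at 4 µM and 0.70 (SE 0.09, adjusted p = 3.1e-13) at 8 µM on the log2 scale. MAFG, a partner of NFE2L1 on DNA, had the largest fall (-0.68 and -1.01). NFE2L1 itself was lower in labeled RNA at 8 µM (-0.58, adjusted p = 2.8e-07). The 1 that rose was the ubiquitin ligase UBE3C (0.54 and 0.53).

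Few members had enough signal around their ends to be tested. In the 4000 bases downstream of the gene end, 6 members could be tested: PSMB10 was lower at 4 µM and PSMB10 and PSMA5 at 8 µM, with 18.2% and 24.3% of all genes lower. PSMB10 had 13 and 9 downstream fragments at 0 µM, 11 and 4 at 4 µM and 7 and 7 at 8 µM, in libraries of unequal depth, and its window overlaps CTRL on the same strand. Upstream of the start, 7 members could be tested, and PSMA1, PSME2 and PSMG2 were lower at both doses. Of all genes, 22.9% were lower there at 4 µM and 28.5% at 8 µM. The upstream window of PSMG2 overlaps AP005482.1 on the same strand. At 4 µM, no upstream call of PSMA1, PSME2 or PSMG2 held in every omission of a library. Their log2 fold changes ranged from -1.04 to -0.68, -0.81 to -0.61 and -0.89 to -0.73. At 8 µM, that of PSMG2 did not hold in every omission (-1.05 to -0.62). PSMA1 had 75 and 63 upstream fragments at 0 µM, 80 and 86 at 4 µM and 73 and 71 at 8 µM, with log2 fold changes of -0.86 (SE 0.19, adjusted p = 0.0001) and -0.94 (SE 0.20, adjusted p = 2.3e-05). With TMM scaling, 1 member was lower upstream at each dose, without a share of all genes under that scaling. By the study's rule for lowered transcripts, which asks for a labeled level lowered 1.5-fold at both doses, 0 of 34 members with a sufficient level passed, while 660 of 6774 genes with such a level did (9.74%). With 1.2-fold, 4 members passed, PSMD2, PSMD3, PSMG1 and PSMG3, and 2229 genes (32.9%). With 8 µM alone, 3 passed, PSMD2, PSMG1 and PSMG3, and 1503 genes (22.2%). Labeled levels enter this rule without background taken off. At 0 µM, median labeled shares were 12.5% and 12.6% over 45 members and 21.5% and 21.6% over 14124 genes. In Con-acrylonitrile-RNA the members' median mismatch share was 6.91% and 7.41%. The part of this in the counts was not tested. The study's rule for enhanced downstream signal was met by 0 members. That rule leaves out windows that overlap a gene on the same strand, as those of 21 members do. Members fit for this rule were not counted, and neither were the genes that met it over the whole series.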

How the data were processed

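mRNA libraries of HEK293T cells were analysed, 8 of the conversion experiment and 6 of the PDP experiment, in 1 file set per library. Per the study's methods, the authors removed adapters (cutadapt 1.18, a version from the submitters' processing notes), collapsed identical reads, removed rRNA, and mapped with HISAT2 (version 2.1.0) to GRCh37 (hg19), keeping uniquely placed proper pairs. Mismatches at polymorphisms or at low base quality were left out. The sources used here name no counting tool and do not say whether counting used the strand. The deposited counts of the conversion experiment are raw fragment counts by number of mismatches. The deposited counts of the PDP experiment are raw total, labeled, downstream and upstream fragments, and the FPM values beside them are RPM-like values that the authors scaled to all fragments of the library. The authors' half-lives were recomputed from the counts.

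Members and lists were chosen with earlier results of these data known. Counts were tested with edgeR 4.0.16 (glmQLFit, glmQLFTest; R 4.3.3), with Benjamini-Hochberg adjustment over all genes tested and a threshold of 0.05. The conversion experiment used TMM and filterByExpr in 1 fit of 4 groups. The PDP experiment used the authors' library sizes, with a mean of at least 1 total FPM and, for labeled RNA, 0.5 labeled FPM, or 0.5 FPM in the window. Labeled shares were tested as labeled against unlabeled counts with the library as a block. Values are given for the catalytic and inducible subunits, the extremes of each measure, the members past the threshold with PDP, those with low counts, and those whose call changed with a setting. The first ID of PSMA2 is ENSG00000106588.6 and the second ENSG00000256646.3. Transcript length and GC content come from GENCODE v44lift37, and pathway and marker lists were written by hand. Alternatives covered normalization (DESeq2 1.42.0 among them), filters, limma 3.58.1 on log2(FPM + 0.1) and log2(FPM + 1), a GC spline of 6 degrees of freedom, the replicate number as a block and each library left out. The interaction test, the GC terms of the PDP experiment, the library sizes of fragments in genes and the count without overlapping members were chosen after seeing the data. Shares carry 95% Wilson intervals, which cover counting error only.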

Additional observations from a re-analysis of the deposited data

Results flagged for a closer look

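PSME1, a subunit of the activator that caps the core particle, is listed because acrylonitrile moved it in opposite directions with and without s4U. It had 33.8 and 30.0 CPM in s4U-acrylonitrile-RNA, against 23.5 and 22.2 CPM in s4U-RNA, and 12.2 and 10.1 CPM in Con-acrylonitrile-RNA, against 20.9 and 18.9 CPM in Con-RNA. The difference of the log2 fold changes was 1.19, with an adjusted p of 0.0282 from edgeR's quasi-likelihood test of an interaction term that was added after seeing the data. The same member had the lowest marked share after 24 h, 33.1% and 32.3%. With the replicate block or a GC term the call held, and without any 1 of the 6 libraries outside s4U-RNA it did not (adjusted p of 0.0503 to 0.20).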

How the results depend on the processing

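Of the results on named genes, 947 values under the alternatives kept their direction and their side of the threshold, 146 were no longer past it and 12 turned. Leaving out a library gave 90 of the 146. The counts below are members called, without the shares of all genes under the same settings. In the conversion experiment, with a GC term 4 members were higher after acrylonitrile without s4U and 5 with it. 24 were higher with s4U alone without overlapping members. The interaction gave 4 higher and 1 lower without a filter and 1 lower with a GC term.

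In labeled RNA, TMM gave 4 higher at 4 µM, and 7 higher and 4 lower at 8 µM. DESeq2 gave 1 lower at 4 µM and 3 at 8 µM, both forms of limma 4 higher at 4 µM, the GC term 2 lower at 4 µM and 5 at 8 µM, and library sizes of fragments in genes 1 higher at 8 µM. For 8 against 4 µM, the single call was lost (0 lower) under TMM, DESeq2, limma with 0.1, the GC term and sizes of fragments in genes. In total RNA, TMM gave 23 higher and 9 lower at 4 µM and 22 and 9 at 8 µM, DESeq2 19 and 8, and 16 and 9, and the GC term with TMM 8 and 10, and 3 and 13. Sizes of fragments in genes gave 6 lower at 4 µM. In unlabeled RNA, TMM gave 21 higher and 9 lower at 4 µM and 17 and 11 at 8 µM, and DESeq2 16 and 9, and 12 and 10. Downstream at 8 µM, TMM gave 1 lower, and no filter 1 higher and 0 lower, with 0 lower at 4 µM. Upstream, TMM gave 1 lower at each dose and no filter 1 lower at 4 µM.

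With a GC term in s4U-labeled RNA, the acrylonitrile effect turned to -0.20 for PSMB10 and -0.10 for PSMG3. In total RNA, PSMB5 turned to -0.011 at 4 µM and -0.080 at 8 µM under TMM, to -0.019 and -0.10 under DESeq2 and to -0.038 and -0.11 under the GC term, and PSMB6 at 8 µM to -0.0104 under TMM and -0.031 under DESeq2. The cause of these turns was not tested. The median 24 h share was 72.9% with at least 2 mismatches and 78.6% with the Con-acrylonitrile-RNA share taken off. The median half-life was 10.5 h with that background taken off and 5.60 h at 10 FPM or more. The rule for lowered transcripts passed 4 members at 1.2-fold and 3 at 8 µM only.

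With 1 library left out at a time, the members called ranged as follows. With s4U alone, 1 to 4 were lower. The interaction gave 0 to 10 higher and 0 to 11 lower. In labeled RNA, 0 to 3 were higher and 2 to 4 lower at 4 µM, 1 to 2 higher and 4 to 7 lower at 8 µM, and 0 to 1 lower between the doses. In total RNA, 1 to 3 were lower at 4 µM, 3 to 6 at 8 µM and 0 to 4 between the doses, and in unlabeled RNA 1 to 2, 2 to 5 and 0 to 5. The labeled share was lower for 12 to 18 at 4 µM and 13 to 21 at 8 µM. Downstream, 0 to 1 were lower at 4 µM and 0 to 2 at 8 µM, and upstream 0 to 2 at 4 µM. The median 24 h share ranged from 85.3% to 86.2% and the median half-life from 5.13 to 5.19 h. A lone library is assumed to vary like those of the other groups.

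The replicate numbers are not stated to pair the libraries, and deviations of same-numbered libraries correlated at -0.03 to 0.12. With the replicate number as a block, the interaction gave 1 member lower, and with the block and a GC term 1 lower, while acrylonitrile raised 5 members in s4U-labeled RNA, and PSMB10 turned to -0.16 and PSMG3 to -0.077 there. No other count of members moved by over 1.5 times under the block.

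Depth limits the members with few fragments: PSMB8, PSMB9, PSMB11, PSMA8 and PSMD5 allow no statement on absence or fold, and half-lives of PSMG2 rest on 30 and 36 fragments. With 2 libraries per group the smallest exact p is 0.0357 for the shares, and the liver transcripts, the GC relation and the gene share move with the groups.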

Other observations

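PSMA1 and PSMA2 each stand under 2 gene IDs whose spans overlap on the same strand. The IDs of PSMA2 changed by 1.78 and 1.75 on the log2 scale with s4U alone, and those of PSMA1 by 0.29 and 0.98. Both IDs of PSMA1 also overlap COPB1 on the same strand, and fragments could have been assigned to either. The same holds for PSMA6 with KIAA0391, PSMA3 with CTD-2002H8.2 and PSMD2 with EIF2B5.

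Across 44 members with a transcript sequence, genes and not independent replicates, the marked share after 24 h had a Pearson's r of 0.44 with the uridine content of the transcript, and the labeled share after 1 h one of 0.38. In the PDP experiment, the change of the labeled share had an r with transcript GC content of 0.63 at 4 µM and 0.36 at 8 µM over the 44 members, and of 0.03 and -0.04 over 13785 genes.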
